A study of Mus musculus with 6 samples.

Results

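Prostaglandin E2 (PGE2) is a lipid mediator, and 10 mouse genes for its synthesis, decay and receptors were followed in 6 colon tumours measured on arrays. The genes were chosen by name, with earlier results of these data known. They are the cyclooxygenases Ptgs1 and Ptgs2, the PGE2 synthases Ptges, Ptges2 and Ptges3, and the degrading enzyme Hpgd. The receptors Ptger1, Ptger2, Ptger3 and Ptger4 complete the set. Of these 10 genes, 9 had a probe set named for them alone, among 19938 genes measured in all; no probe set was named for Ptgs1, so it was not analysed here.

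The 3 tumours called Dnmt1chip/c came from mice with the hypomorphic chip allele of Dnmt1 over the knockout allele c. The 3 tumours called Dnmt1chip/+ came from mice with the chip allele over a wild-type allele. Dnmt1 encodes the enzyme that copies DNA methylation onto new strands, and the series' text describes the first genotype as having less methylated satellite repeats and the second as having normal methylation. All mice also carried the tumour-causing ApcMin allele over wild-type Apc, were hybrids of C57BL/6 and 129Sv4 parents, received 2% (w/v) dextran sodium sulfate, which injures the colon, at 6 weeks of age, and had tumours taken at 20 weeks. The chip and c alleles are germline alleles, so all cell types of a tumour carried them. The comparison bears on the series' question of whether lower DNA methylation goes with tumour cell differentiation. The descriptions of the 3 Dnmt1chip/c samples share 1 number, and those of Dnmt1chip/+ replicates 1 and 2 share another; no label says that the tumours came from separate mice, and p-values therefore cover only the spread among the tumours sampled, which may be technical.

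Cyclooxygenases convert arachidonic acid, released from membrane lipids by phospholipases, to an unstable prostaglandin that terminal synthases turn into PGE2 and related prostanoids. PGE2 acts through G protein-coupled receptors, of which Ptger2 and Ptger4 raise cyclic AMP, and is inactivated inside cells by the dehydrogenase Hpgd after uptake by a carrier. In the intestine this mediator takes part in repair and inflammation. The inducible cyclooxygenase promotes tumours in Apc mutant mice, and HPGD is known as a gene whose level falls in human colon tumours.

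The values are log2 values, a base inferred because no label states it, centred on the median of each probe set over the 6 arrays. They show differences between tumours and hold no level, so genes cannot be ranked by abundance, and the number of arrays limits the precision. Dnmt1, the altered gene, had centred log2 values of -0.37, -0.48 and -0.42 in the Dnmt1chip/c tumours and 0.44, 0.52 and 0.37 in the Dnmt1chip/+ tumours. Its difference, always given here as Dnmt1chip/c minus Dnmt1chip/+, was -0.87 ± 0.06 (SE; limma, adjusted p = 3.13e-04); the probe positions relative to the mutated sequence are not known here, which limits this as a check of the genotypes.

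The stretches before the starts of the genes for the inducible steps of synthesis and for decay are shown because DNA methylation at mouse promoters lies mostly on CpG sites. Each is the 250 bases before the 1 transcript start that the RefSeq promoter table lists for the gene, on the gene's strand, 5′ to 3′, from the GRCm38.p6 build, with CpG sites in capitals. The Ptgs2 stretch lies at chr1:150099781-150100030 on the plus strand, the Ptges stretch at chr2:30903298-30903547 on the minus strand and the Hpgd stretch at chr8:56294302-56294551 on the plus strand. For Ptgs2 and Hpgd that start is also the outer end of the annotated gene; for Ptges it lies well inside the gene, whose annotation begins farther upstream, so the Ptges stretch stands for 1 of its possible starts.
Ptgs2: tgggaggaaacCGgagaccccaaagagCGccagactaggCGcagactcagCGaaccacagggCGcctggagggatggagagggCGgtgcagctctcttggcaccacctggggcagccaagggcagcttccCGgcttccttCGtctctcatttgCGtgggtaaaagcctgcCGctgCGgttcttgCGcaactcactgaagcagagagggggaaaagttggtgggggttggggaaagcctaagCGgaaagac
Ptges: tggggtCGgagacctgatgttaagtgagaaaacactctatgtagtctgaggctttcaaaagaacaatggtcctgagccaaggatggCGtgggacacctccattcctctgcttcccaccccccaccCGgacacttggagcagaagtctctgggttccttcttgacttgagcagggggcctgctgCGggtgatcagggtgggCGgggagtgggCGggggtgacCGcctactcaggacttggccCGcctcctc
Hpgd: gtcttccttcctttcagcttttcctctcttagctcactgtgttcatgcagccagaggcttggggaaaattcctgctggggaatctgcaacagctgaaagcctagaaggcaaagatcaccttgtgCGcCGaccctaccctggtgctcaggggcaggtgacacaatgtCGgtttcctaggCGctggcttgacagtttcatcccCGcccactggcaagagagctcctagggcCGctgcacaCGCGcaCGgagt
They hold 13, 8 and 9 CpG sites. Methylation was not measured in the values used here, so the sequences show where it could lie and not whether it differed.

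RefSeq windows of 300 bases, with 50 bases after the start added, were at hand for 9 of the 10 genes; Ptger1 is named only. Those of Ptgs1, Ptges and Ptger3 sit at a start inside the annotated gene, so their CpG counts describe that start and not the outermost one. The Ptges3 window held 46 CpG sites, and 1.44% of the 32851 mouse windows held more. Ptger3 had 27 CpG sites, Ptger4 25, Ptges2 18, Ptgs2 16, Hpgd 12, Ptges 10, Ptgs1 6 and Ptger2 3, against a median of 7 over all windows. Short motifs of the cyclic AMP response element, the TATA box and the CDX factors were searched on both strands, and no window of these genes held more than 1 match. TGACG, the core of the cyclic AMP response element, occurred in the Ptgs2 and Ptges3 windows and in 20.8% of all windows; TATAAA occurred in the Hpgd window and in 13.6% of all. The Ptgs2 match began at base 14 of the gene, on the other strand, and the Hpgd match at base 5. They are shown with 10 bases on each side and the match in capitals, at chr1:150100034-150100058 and chr8:56294546-56294571 on the plus strand.
Ptgs2: gtcaccactaCGTCAcgtggagtcc
Hpgd: cggagtgggcTATAAAagctgctgcg
TTTATG, a sequence that CDX factors can bind, occurred in the Ptges2 and Ptger2 windows and in 11.9% of all windows, and TTTATTG in no window of these genes and in 4.6% of all.

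Among the 9 measured genes, the inducible steps of PGE2 synthesis were lower in the Dnmt1chip/c tumours. Ptgs2 and Ptges passed the test, and the other 7, including all 4 receptors, did not. A gene was called at a Benjamini-Hochberg adjusted p under 0.05 in limma over all genes. By this rule 2 of 9 genes (22.2%) were called, against 32.0% of all genes, so the share called among these genes is no result in itself. In the direction found, 21.3% of all genes were lower, and 10.7% were higher. An exact permutation test of a single gene, two-sided over 20 assignments, cannot go below p = 0.1 with 3 against 3.

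Ptgs2, also called COX-2, is the cyclooxygenase that cytokines, growth factors and injury induce. Its centred log2 values were -0.37, -0.92 and -0.97 in the Dnmt1chip/c tumours, against 0.95, 0.56 and 0.37 in the Dnmt1chip/+ tumours. All 3 Dnmt1chip/c tumours lay below all 3 Dnmt1chip/+ tumours, with Dnmt1chip/c replicate 1 the nearest to them. The means were -0.75 ± 0.33 and 0.63 ± 0.30 (SD, n = 3 each). In log2 units Ptgs2 fell by 1.38 ± 0.20 (SE), which is 2.60-fold (limma, adjusted p = 0.00287). Of all genes 0.632% had a lower difference, and 1.55% were called and at least 2-fold lower. Arrays of whole tumours cannot tell fewer cells of a type from less RNA per cell, here and below.

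Ptges, the inducible membrane-bound synthase that is coupled to Ptgs2, had values of -0.23, -0.84 and -0.93 in the Dnmt1chip/c tumours, against 0.27, 0.27 and 0.23 in the Dnmt1chip/+ tumours. The Dnmt1chip/+ tumours were nearly alike, and Dnmt1chip/c replicate 1 again stood nearest to them without overlap. Means were -0.67 ± 0.38 and 0.26 ± 0.02 (SD, n = 3 each). Ptges fell by 0.93 ± 0.17 (SE), which is 1.90-fold (limma, adjusted p = 0.00703). Both calls were kept in all 16 alternative settings, which are other fits and, on the reported fit, thresholds of 0.01 and 0.1. Some of these could not lose the calls. The adjusted p of the reported fit settles both thresholds, and the fit on genes with 1 probe set used the same values for both genes. Over all 16 settings the Ptgs2 difference ran from -1.68 to -1.22 (adjusted p from 6.33e-04 to 0.0129). The Ptges difference ran from -1.14 to -0.80 (adjusted p from 2.39e-04 to 0.0280).

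The constitutive synthases differed less. Ptges2, a membrane-associated synthase of steady expression, had values of -0.01, 0.10 and 0.23 in the Dnmt1chip/c tumours, against -0.01, 0.01 and -0.07 in the Dnmt1chip/+ tumours, and the groups overlapped (difference 0.13 ± 0.07, SE; adjusted p = 0.229). Ptges3, the cytosolic synthase that is also the Hsp90 co-chaperone p23, is the mean of 3 probe sets. It had values of -0.11, -0.15 and -0.02 in the Dnmt1chip/c tumours, against 0.13, 0.21 and 0.02 in the Dnmt1chip/+ tumours. The groups did not overlap, but the difference of -0.21 ± 0.07 (SE) did not pass (adjusted p = 0.0580). Tested singly, its probe sets gave -0.15 (adjusted p = 0.193), -0.24 (adjusted p = 0.0432) and -0.25 (adjusted p = 0.0408). RefSeq lists a pseudogene, Ptges3-ps, whose near-identical sequence probes could share, so Ptges3 is uncertain. It was called lower in 5 of 15 alternative settings: with the description number as a random block (adjusted p = 0.0251), with array weights (adjusted p = 0.0268), among genes taken to lie at 8 or above (adjusted p = 0.0381), without Dnmt1chip/+ replicate 3 (-0.27, adjusted p = 0.0414) and at the looser threshold of 0.1. Over all 15 the adjusted p ran from 0.0251 to 0.176. Every description number lies within 1 genotype, so the fit with that block cannot tell number from genotype. The array weights gave Dnmt1chip/+ replicate 1 a weight of 7.69, against 0.515 to 0.986 for the other tumours, so that fit leaned on this tumour.

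**Figure D1:**
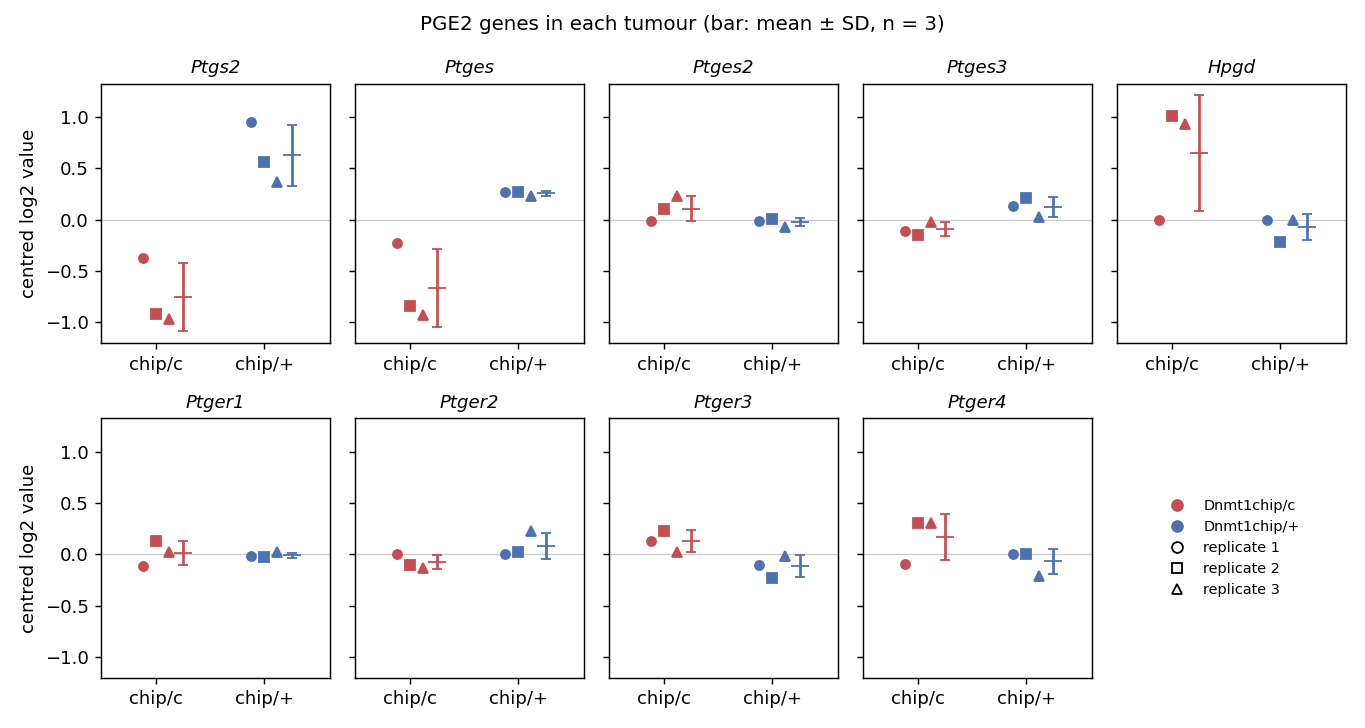
Centred log2 values (vertical axis) of the 9 measured PGE2 genes in each tumour, with Dnmt1chip/c tumours in red on the left of each panel and Dnmt1chip/+ tumours in blue on the right; symbols give the replicate number, and bars the mean ± SD (n = 3). Ptgs2 and Ptges separate the groups by the widest gaps, and Dnmt1chip/c replicate 1 lies at 0.00 for Hpgd while the other 2 lie at 1.01 and 0.93.

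Hpgd, the 15-hydroxyprostaglandin dehydrogenase that starts the breakdown of PGE2, split the Dnmt1chip/c tumours. Its values were 0.00, 1.01 and 0.93 there, against 0.00, -0.22 and 0.00 in the Dnmt1chip/+ tumours. Dnmt1chip/c replicates 2 and 3 were high, and replicate 1 lay among the Dnmt1chip/+ tumours. The difference of 0.72 ± 0.26 (SE) did not pass (adjusted p = 0.0734), although only 3.94% of all genes had a higher one. Leaving out Dnmt1chip/c replicate 1 gave 1.04 ± 0.09 (SE), 2.06-fold, with an adjusted p = 6.66e-04. Hpgd was called higher in 4 of 16 alternative settings, 1 of them the looser threshold of 0.1 on the reported fit. Over all 16 the adjusted p ran from 6.66e-04 to 0.207. The same tumour was the least shifted in Ptgs2 and Ptges, and without it their differences were -1.57 and -1.14.

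Within each tumour the centred values of synthesis and decay can be set side by side. Ptgs2 minus Hpgd was -0.37, -1.93 and -1.90 in the Dnmt1chip/c tumours, against 0.95, 0.78 and 0.37 in the Dnmt1chip/+ tumours. Ptges minus Hpgd was -0.23, -1.85 and -1.86 in the Dnmt1chip/c tumours, against 0.26, 0.49 and 0.24 in the Dnmt1chip/+ tumours. Hpgd was at 0.00 in Dnmt1chip/c replicate 1 and in Dnmt1chip/+ replicates 1 and 3 after rounding, so in these tumours the differences repeat the Ptgs2 and Ptges values to within rounding, and they add to them only in the other 3. These are differences between centred values and say nothing of the amount of PGE2, which was not measured.

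No receptor passed the test. Ptger4, the receptor EP4 that raises cyclic AMP, had values of -0.09, 0.30 and 0.30 in the Dnmt1chip/c tumours, against 0.00, 0.00 and -0.21 in the Dnmt1chip/+ tumours. Replicate 1 of Dnmt1chip/c was again the one that overlapped the Dnmt1chip/+ tumours, and the difference was 0.24 ± 0.12 (SE; adjusted p = 0.188). Without that tumour it was 0.37 (adjusted p = 0.0184). Ptger4 was called in only this 1 of 16 alternative settings, over which the adjusted p ran up to 0.424. Ptger2, the receptor EP2 and the other one that raises cyclic AMP, had values of 0.00, -0.10 and -0.13 in the Dnmt1chip/c tumours, against 0.00, 0.02 and 0.23 in the Dnmt1chip/+ tumours. The Dnmt1chip/c tumours were the lower ones by a margin under the rounding, and the difference of -0.16 ± 0.08 (SE) did not pass (adjusted p = 0.169).

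Ptger3, the receptor EP3 that lowers cyclic AMP, had values of 0.13, 0.23 and 0.02 in the Dnmt1chip/c tumours, against -0.10, -0.23 and -0.02 in the Dnmt1chip/+ tumours. The groups did not overlap, yet the difference of 0.24 ± 0.08 (SE) did not pass (adjusted p = 0.0603). Ptger3 was called higher in 6 of 15 alternative settings, 1 of them the looser threshold of 0.1 on the reported fit. Another was the fit without Dnmt1chip/c replicate 3 (0.30, adjusted p = 0.0499). Over all 15 the adjusted p ran from 0.0254 to 0.178. Ptger1, the receptor EP1 that raises intracellular calcium, had values of -0.11, 0.13 and 0.02 in the Dnmt1chip/c tumours, against -0.02, -0.03 and 0.02 in the Dnmt1chip/+ tumours, a difference of 0.03 ± 0.07 (SE; adjusted p = 0.832). Judged from the step between possible values in the deposited numbers, Ptger1, Ptger2 and Ptger3 were taken to have at least 1 value below 8 before centring, and the other 6 genes to have none. Over the 9 genes, 5 had groups that did not overlap (4 lower, Ptgs2, Ptges, Ptges3 and Ptger2, and 1 higher, Ptger3), against 46.4% of all genes (28.5% lower and 17.9% higher).

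The genes whose 6 values were most like those of Ptgs2 and Ptges were found by the root-mean-square difference of the centred log2 values over the 6 tumours. Nearest to Ptgs2 were Plau, the urokinase-type plasminogen activator, at 0.134, the matrix metalloproteinase gene Mmp10 at 0.170 and Cemip, a hyaluronan-degrading protein, at 0.172. Plau had values of -0.40, -0.98 and -0.90 in the Dnmt1chip/c tumours, against 0.73, 0.78 and 0.40 in the Dnmt1chip/+ tumours. Nearest to Ptges were Sting1, the adaptor of cytosolic DNA sensing, at 0.0774, the anion channel subunit Lrrc8c at 0.0892 and the gap junction gene Gja1 at 0.0899. Ptges was the 188th nearest gene to Ptgs2, and Ptgs2 the 862nd nearest to Ptges, at 0.315. Hpgd was among the farthest from both.

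The surrounding pathway was described with lists of 99 further genes, of which 90 were measured. Of these, 20 were higher (22.2%, against 10.7% of all genes) and 25 lower (27.8%, against 21.3%) in the Dnmt1chip/c tumours, and 45 were not called. The lower ones numbered 15 without Dnmt1chip/+ replicate 1. The median difference was -0.05 on the log2 scale, against -0.01 over all genes. The lists were chosen with earlier results of these data known, so their counts are no independent test. A share near that of all genes is no result in itself. Calls went in opposite directions at different steps, as follows.

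Genes that release arachidonic acid were mostly higher. Of 12 measured 8 rose (66.7%, against 10.7% of all genes) and 1 fell, with a median difference of 0.71. Pla2g4a, the cytosolic phospholipase A2 that supplies the cyclooxygenases, had values of 0.38, 0.24 and 0.66 in the Dnmt1chip/c tumours, against -0.24, -0.34 and -0.40 in the Dnmt1chip/+ tumours, and rose by 0.76 ± 0.11 (SE; limma, adjusted p = 0.00281). The groups stood well apart. Pla2g4c, a membrane-bound relative of it, had the largest difference on the list, with 0.73, 2.07 and 2.99 in the Dnmt1chip/c tumours, against -0.73, -0.82 and -0.89 in the Dnmt1chip/+ tumours (2.75 ± 0.50, SE; adjusted p = 0.00635). The secreted phospholipases Pla2g5, Pla2g3 and Pla2g10 rose by 1.24, 0.67 and 0.59, Pla2g4f by 0.90, and the lipases Daglb and Mgll, which act on diacylglycerol and monoacylglycerol, by 1.20 and 1.15. Pla2g6, a calcium-independent phospholipase, fell by 0.30 (adjusted p = 0.0142), a call lost without Dnmt1chip/+ replicate 1 or 2. The 8 higher calls were kept when any single tumour was left out.

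At the branch from Ptgs2 to other prostanoids, 1 of 6 measured synthases was called, as lower (16.7%, against 21.3% of all genes). Hpgds, the hematopoietic prostaglandin D2 synthase, had values of -0.95, -1.13 and -0.81 in the Dnmt1chip/c tumours, against 0.81, 0.82 and 0.94 in the Dnmt1chip/+ tumours. It fell by 1.81 ± 0.09 (SE), 3.52-fold, with an adjusted p = 1.49e-04 in limma, a larger difference than that of any PGE2 gene, and Dnmt1chip/c replicate 1 lay between the other 2. Ptgds, the other prostaglandin D2 synthase, and Ptgis, the prostacyclin synthase, differed by -0.09 and 0.16 and were not called. None of the 5 receptors of other prostanoids (Ptgdr, Ptgdr2, Ptgfr, Ptgir and Tbxa2r) was called in limma, and none had an unadjusted p under 0.05.

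Of 5 measured genes for transport and further breakdown, 2 rose and 1 fell (40.0% and 20.0%, against 10.7% and 21.3% of all genes). Slco2a1, the carrier that takes prostaglandins up for breakdown by Hpgd, had values of 0.46, 0.46 and 0.32 in the Dnmt1chip/c tumours, against -0.53, -0.93 and -0.32 in the Dnmt1chip/+ tumours. It rose by 1.01 ± 0.15 (SE; limma, adjusted p = 0.00289), with Dnmt1chip/c replicate 1 at the level of replicate 2. Ptgr1, a reductase of the step after Hpgd, fell by 0.46 (adjusted p = 0.00675). The carbonyl reductase Cbr3 rose by 0.73 (adjusted p = 0.0198), a call lost without Dnmt1chip/c replicate 2, Dnmt1chip/+ replicate 1 or Dnmt1chip/+ replicate 2. Abcc4, an exporter of prostaglandins, differed by -0.21 (adjusted p = 0.178).

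The lipoxygenase branch, which draws on the same arachidonic acid, had 3 lower and 2 higher genes of 12 measured. The share that was lower lay near the 21.3% of all genes and is no result in itself. The share that was higher was 16.7%, against 10.7% of all genes. Alox15 and Alox12, lipoxygenases that place oxygen on arachidonic acid, fell by 1.72 ± 0.15 and 1.44 ± 0.13 (SE, limma, adjusted p = 5.55e-04 and 5.40e-04). Lta4h, which makes leukotriene B4, fell by 0.45. Ltc4s, of cysteinyl leukotriene synthesis, rose by 0.31, a call lost without Dnmt1chip/+ replicate 2, and the leukotriene B4 receptor Ltb4r1 rose by 0.32, a call lost without Dnmt1chip/c replicate 3.

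**Figure D2:**
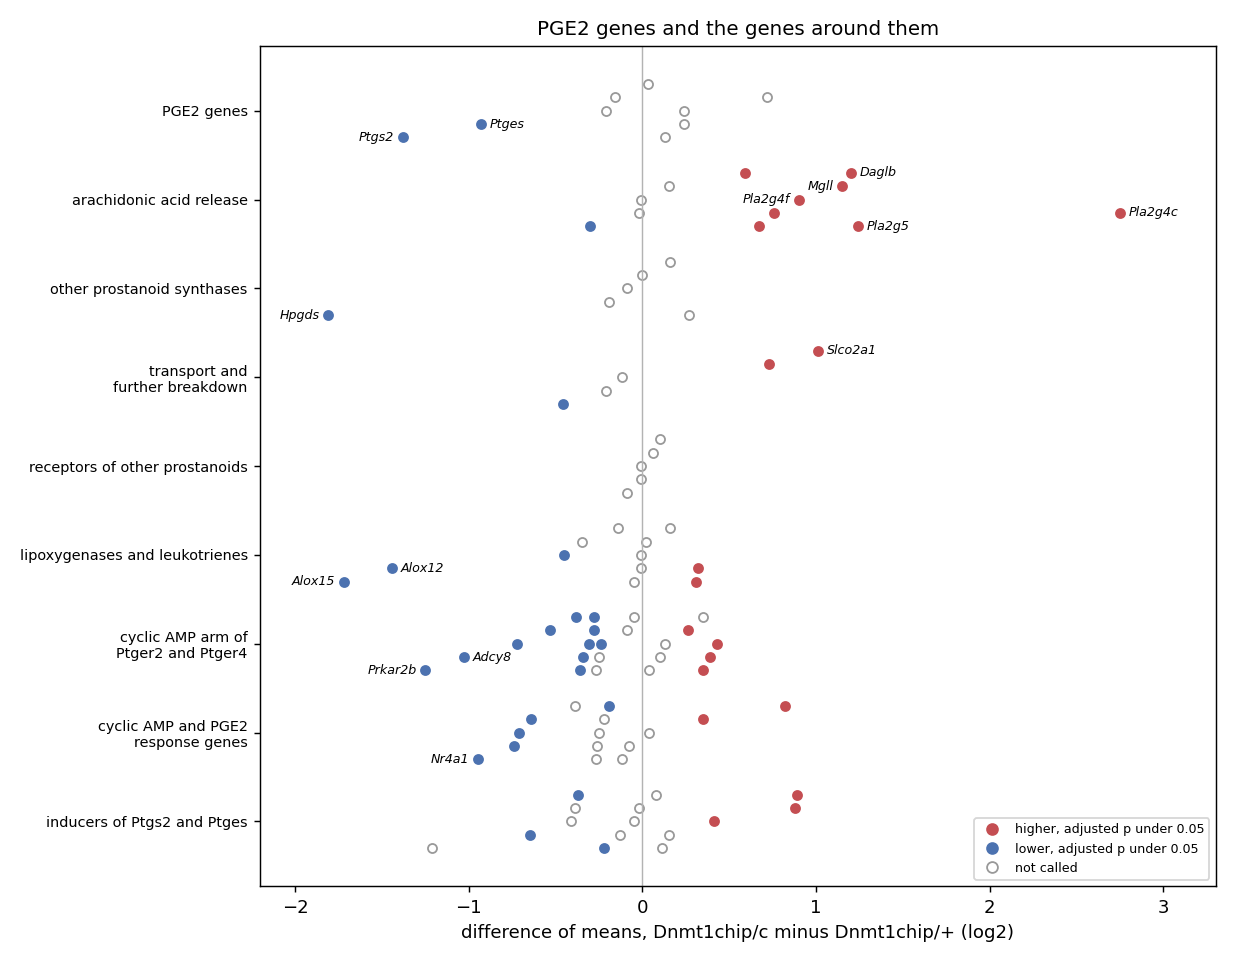
Difference of group means (horizontal axis, Dnmt1chip/c minus Dnmt1chip/+, log2) for each measured PGE2 gene and each gene of the surrounding lists; filled red points were called higher, filled blue points lower and open points not called, and called genes at 0.90 or more in size are named. Genes of arachidonic acid release lie mostly to the right, up to 2.75 for Pla2g4c, while Ptgs2, Ptges and Hpgds lie to the left.

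Downstream of Ptger2 and Ptger4, adenylyl cyclases make cyclic AMP, which acts through protein kinase A and the factor CREB. Of 23 measured genes of this arm 11 fell and 4 rose (47.8% and 17.4%, against 21.3% and 10.7% of all genes). The lower ones numbered 5 without Dnmt1chip/+ replicate 1 and 7 without Dnmt1chip/c replicate 2, Dnmt1chip/+ replicate 2 or Dnmt1chip/+ replicate 3. Prkar2b and Prkar1b, regulatory subunits that hold protein kinase A inactive, fell by 1.25 and 0.72, the cyclase genes Adcy8 and Adcy3 by 1.03 and 0.53, and the CREB coactivator gene Crtc3 by 0.38. The cyclase genes Adcy9 and Adcy6 rose by 0.43 and 0.39. These 7 calls were kept in every fit that left out 1 tumour. The regulatory subunit gene Prkar2a rose by 0.26, while Prkar1a, another one, fell by 0.28 (limma, adjusted p = 0.0119 and 0.0164). The catalytic subunit gene Prkacb fell by 0.36 (adjusted p = 0.0207). The Prkar1a and Prkacb calls were lost without some single tumours.

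Genes known to respond quickly to cyclic AMP or PGE2 showed 5 lower and 2 higher of 15 measured (33.3% and 13.3%, against 21.3% and 10.7% of all genes). Nr4a1 and Nr4a2, orphan nuclear receptors, fell by 0.95 ± 0.10 and 0.64 ± 0.11 (SE; limma, adjusted p = 8.91e-04 and 0.00457), and the chemokine gene Cxcl1 fell by 0.71, whereas Fos rose by 0.82 ± 0.14 (adjusted p = 0.00481). The lower ones numbered 8 without Dnmt1chip/c replicate 1 and 3 without Dnmt1chip/c replicate 2 or 3 or Dnmt1chip/+ replicate 1 or 2. The higher ones numbered 1 without Dnmt1chip/c replicate 2 or 3. Nr4a1, Nr4a2, Cxcl1 and Fos kept their calls in all these fits.

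Of 15 measured genes that can induce Ptgs2 and Ptges, 3 fell and 3 rose (20.0% each, against 21.3% and 10.7% of all genes). The transcription factor genes Egr1 and Cebpd fell by 0.65 and 0.37, and Tlr4, the lipopolysaccharide receptor, its adaptor gene Myd88 and the growth factor receptor gene Egfr rose by 0.89, 0.41 and 0.88. Rela, a subunit of NF-kB, fell by 0.22, a call that was lost without any one tumour except Dnmt1chip/c replicate 1. The cytokine gene Il1a, an inducer of Ptgs2, had values of 0.04, -1.73 and -1.80 in the Dnmt1chip/c tumours, against -0.03, 0.15 and 0.03 in the Dnmt1chip/+ tumours. Again Dnmt1chip/c replicate 1 lay among the Dnmt1chip/+ tumours and the other 2 far below, and Il1a was not called (-1.21 ± 0.46, SE; adjusted p = 0.0875). Il1b and Tnf split the same way, with 0.37, -0.63 and -0.76 for Il1b and 0.19, -0.60 and -0.66 for Tnf in the Dnmt1chip/c tumours, against -0.03 to 0.15 and -0.03 to 0.17 in the Dnmt1chip/+ tumours. Without Dnmt1chip/c replicate 1 the differences of Il1a, Il1b and Tnf were -1.81, -0.75 and -0.69 (adjusted p = 1.27e-04, 0.00137 and 0.00177), and 6 genes of the list were lower.

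Markers of cell types that can hold these genes differed between the same tumours, and their part in the PGE2 results was not tested. The values are centred, so it cannot be said whether any marker is absent. These lists too were chosen with earlier results of these data known. Over all genes 21.3% were called lower and 10.7% higher, and the mast cell list, at 18.2% lower, was near that share. Of 10 macrophage markers 4 were lower, and the list's mean centred value ran from -0.76 to 0.06 in the Dnmt1chip/c tumours, against -0.02 to 0.44 in the Dnmt1chip/+ tumours. The highest Dnmt1chip/c value was that of replicate 1. Without it 8 macrophage markers were lower, and 0 without any other single tumour. Among 10 fibroblast markers 6 fell (9 without Dnmt1chip/c replicate 1) and 1 rose, with list means from -0.48 to -0.08 in the Dnmt1chip/c tumours, against 0.09 to 0.41 in the Dnmt1chip/+ tumours. Of 11 mast cell markers, the cell type besides others in which Hpgds is known, 2 were lower, Cma1 by 0.39 and Tpsab1 by 0.65, and 5 without Dnmt1chip/+ replicate 2. Of 15 tuft cell markers, the epithelial cells known for Ptgs1 and Hpgds, 3 were higher (Dclk1, Trpm5 and Rgs13) and 1 was lower (Avil); the higher ones numbered 0 or 1 without any one tumour except Dnmt1chip/c replicate 1.

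Epithelial markers were higher in 6 of 8 (75.0%, against 10.7% of all genes) and lower in none. Their list means ran from 0.14 to 0.30 in the Dnmt1chip/c tumours, against -0.18 to -0.16 in the Dnmt1chip/+ tumours. Epcam differed by 0.06 (limma, adjusted p = 0.453). Centred values cannot check the labelled tissue. Markers of colonocytes, cells in which Hpgd is known, were higher in 9 of 9, a list chosen with earlier results of these data known. Its means were 1.16, 1.81 and 1.61 in the Dnmt1chip/c tumours, against -1.66, -1.98 and -1.19 in the Dnmt1chip/+ tumours. Dnmt1chip/c replicate 1 was the lowest of its group in this list too, but far from the Dnmt1chip/+ tumours. Among 7 smooth muscle markers 4 fell, against 21.3% of all genes. This count was 3 without Dnmt1chip/c replicate 2 or 3 or Dnmt1chip/+ replicate 3. Among 7 endothelial markers 4 fell (2 without Dnmt1chip/c replicate 3) and 1 rose. Among 8 neutrophil markers 2 fell and 1 rose, shares near the 21.3% and 10.7% of all genes and no result in themselves. Without Dnmt1chip/c replicate 2 or 3 or Dnmt1chip/+ replicate 1, 1 neutrophil marker fell and 0 rose. Of 7 T cell markers limma called 0, and 1 had an unadjusted p under 0.05.

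**Figure D3:**
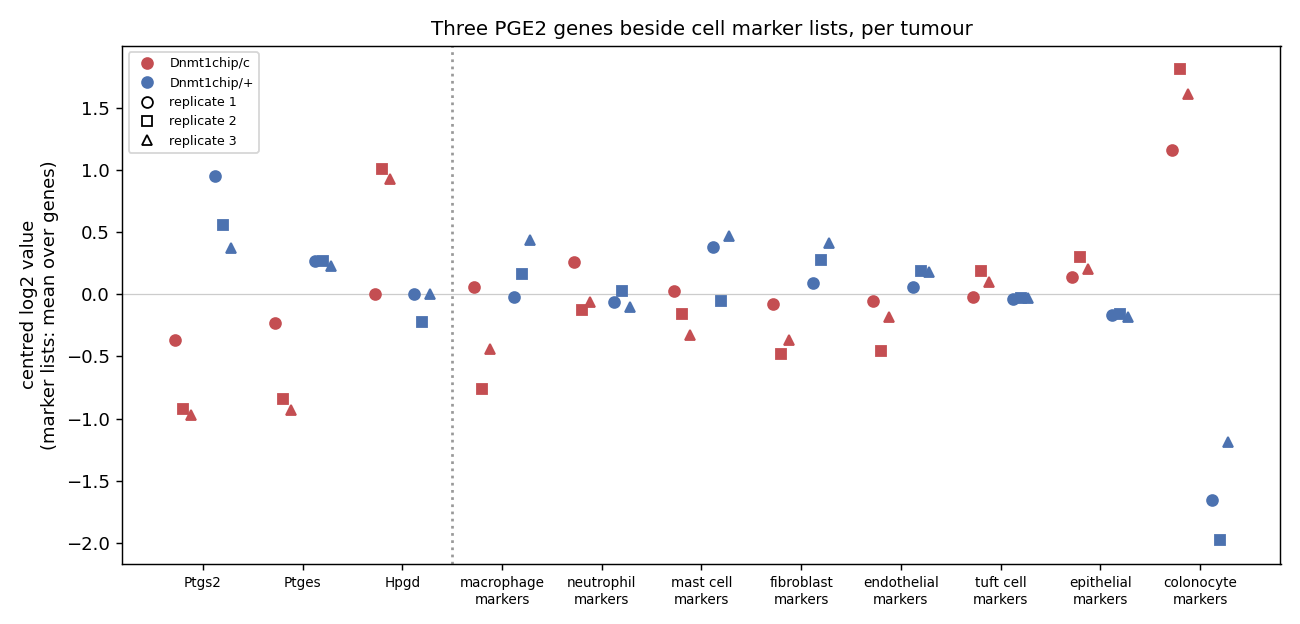
Centred log2 values (vertical axis) of Ptgs2, Ptges and Hpgd in each tumour, left of the dotted line, beside the mean centred values of cell marker lists. The smooth muscle and T cell lists are not shown. Dnmt1chip/c tumours are red and to the left of the blue Dnmt1chip/+ tumours, and symbols give the replicate number. Dnmt1chip/c replicate 1 lies at 0.06 in the macrophage list, where the other 2 are at -0.76 and -0.44, and at 1.16 in the colonocyte list.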

How the data were processed

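RNA from 6 mouse colon tumours was biotin-labelled and hybridised to arrays, per the labels' protocols; sample descriptions point to Affymetrix MoGene 1.0 ST arrays. The authors deposited 1 table of values for 28856 probe sets, here taken as log2 values, although no label states the base; every probe set has a median over the arrays within 5e-07 of 0. How the arrays were normalized is not stated in the labels or the table, and no filter or background call could be used. The values of 98.5% of probe sets are multiples of 1 of 2 fine steps (within 0.25 of a step); the coarser, held by 47.6% of probe sets, was taken to mean values of 8 or above before centring, an inference from number precision.

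Probe sets with exactly 1 gene symbol in the platform annotation (21789; 1621 had several, 5446 none) were averaged per gene, giving 19938 genes, with symbols checked by Entrez number against RefSeq (GRCm38.p6); none changed. Groups follow the titles. The fit was limma 3.58.1 in R 4.3.3 (lmFit, eBayes without trend), two-sided, with Benjamini-Hochberg adjustment over all genes. It was also run on simulated data with independent noise, which cannot show how it behaves where tumours are not independent. Named genes are the members, Dnmt1, genes of the fixed lists, and for each called member the 3 genes nearest to it; single markers serve as examples. The members and lists were chosen with earlier results of these data known. Alternatives were a block on title numbers, a random block on description numbers, quantile normalization, median centring, array weights, robust eBayes, genes with 1 probe set, single probe sets, genes on the coarser step, other thresholds and leaving out each tumour. A planned comparison of protein sequences was not made. Promoter windows come from RefSeq.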

Additional observations from a re-analysis of the deposited data

How the results depend on the processing

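Ptgs2 and Ptges stayed lower and called in every alternative setting, some of which could not lose the calls. The number of measured PGE2 genes called higher, 0 in the reported fit, was 2 with the description number as a random block (correlation -0.166), 1 under quantile normalization, 1 with arrays centred on their median, 2 with array weights and 2 at an adjusted p under 0.1; leaving out single tumours gave 0 to 2. Those genes were Hpgd, Ptger3 and Ptger4. The measured PGE2 genes called lower numbered 2 or 3 throughout, the third being Ptges3, and 5 had an unadjusted p under 0.05 in limma. Every description number lies within 1 genotype, so the fit with this random block cannot tell number from genotype. The fit with array weights gave Dnmt1chip/+ replicate 1 a weight of 7.69, against 0.515 to 0.986 for the other tumours, and so leaned on this tumour. The surrounding genes called lower numbered 15 at an adjusted p under 0.01 and 15 to 30 without single tumours, against 25, and those called higher numbered 12, against 20, when restricted to genes on the coarser number step, where fewer genes are tested. Over all genes 3511 were called at an adjusted p under 0.01, and 4199 to 6593 without single tumours, against 6380. The title numbers gave no pairing: same-numbered tumours had correlations of -0.29, -0.31 and -0.22 in their deviations from the group means, and no tumour correlated best with its own number. With the replicate block 4257 genes were called, and 2 PGE2 genes were lower and 0 higher, as reported, with 16 surrounding genes higher and 18 lower and 6 lower in the cyclic AMP arm. The causes of these moves were not otherwise tested.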
